A study of Mus musculus with 40 samples.

Results

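The 10 genes of polyamine metabolism named here (Odc1, Amd1, Amd2, Srm, Sms, Smox, Sat1, Azin1, Oaz1 and Oaz2) were followed across 8 groups of mice. The tissue was a fast muscle of the hindlimb, the extensor digitorum longus (EDL). They were chosen by gene symbol. A row was found for 9 of the 10, among 22844 genes in all, and Amd2 was not analysed here. All 9 reached 1 CPM (a gene's count scaled to the size of its library) in at least 5 libraries, the minimum for testing, and 13543 genes in all did so.

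Polyamines (putrescine, spermidine and spermine) are small, positively charged molecules that bind nucleic acids and are needed for growth and protein synthesis. Ornithine decarboxylase (Odc1) makes putrescine, and S-adenosylmethionine decarboxylase (Amd1) supplies the aminopropyl groups that spermidine synthase (Srm) and spermine synthase (Sms) add in turn. Spermine oxidase (Smox) and spermidine/spermine acetyltransferase (Sat1) run the path backward. Antizymes (Oaz1 and Oaz2) bind ornithine decarboxylase and send it to the proteasome, and the antizyme inhibitor (Azin1) binds antizymes in its place. In skeletal muscle, Odc1, Amd1 and Smox are known for responding to androgens and to states of muscle growth and wasting.

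Control mice (CON) carried Tsc1fl/fl without Cre recombinase, on the Tsc1tm1Djk/J strain label. In TSCmKO mice the muscle fibers lacked Tsc1, which restrains mTORC1, a kinase complex that drives growth, so that it remained active there. The promoter of the Cre is not given in the sources used here. Mice of both genotypes were 3 or 9 months old (3m, 9m) and were injected intraperitoneally over 3 days with vehicle or with rapamycin (+RM), which inhibits mTORC1. The dose is uncertain, since the labels give 4 mg per kg and the study text gives more. Each of the 8 groups (3mCON, 3mCON+RM, 3mTSCmKO, 3mTSCmKO+RM, 9mCON, 9mCON+RM, 9mTSCmKO and 9mTSCmKO+RM) held 5 mice, with 1 library per mouse, and p-values measure the spread between these mice.

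Library totals ran from 8883870 to 35224669 counts. Levels of a gene are given as CPM, scaled between libraries by the TMM factors of edgeR, and levels of different genes are compared only as TPM, the authors' unit that also divides by transcript length. Tsc1 ran from 51.3 to 134 CPM in the 20 CON libraries and from 17.8 to 35.8 CPM in the 20 TSCmKO libraries, without overlap. Myh4, the myosin of the fastest fibers, had group means of 20880 to 61480 CPM, so the defining marker of fast muscle was present in every group. The labels list inserts of 175 to 239 nt for mice aged 3 months and of 223 to 308 nt for those aged 9 months, so age and library preparation cannot be told apart. In whole muscle, fewer cells of a type and less RNA per cell cannot be told apart either.

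The Amd1 values need care because of its near-copy. Of the 31-base stretches in the coding transcripts of Amd1, 89.6% also occur in Amd2, and 0 occur in any other gene of the table. The row named Amd1 may therefore hold reads of both genes. Both lie on the minus strand of chromosome 10 (GRCm38), Amd1 at chr10:40287458-40302186 and Amd2 at chr10:35708675-35711892. The short upstream open reading frame of Amd1, through which polyamines are known to hold back translation of the enzyme, is shown because it is the same in both genes, so that reads from it cannot be assigned. Its start and stop codons are in capitals.
Amd1 and Amd2 upstream open reading frame: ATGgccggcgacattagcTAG
It had 6 codons before the stop and began at base 12 of 1 of the 2 coding transcripts of Amd1, with 296 bases between its stop codon and the coding start. The other coding transcript lacked it and held 2 different short frames, at bases 74 and 89. In Amd2 it began at base 13, with 300 bases between its stop codon and the coding start.

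The 250 bases before the annotated start (RefSeq, GRCm38.p6, minus strand) are shown because they differ, while most of the transcript sequence is shared. They lie at chr10:40302189-40302438 for Amd1 and chr10:35711892-35712141 for Amd2.
Amd1 upstream: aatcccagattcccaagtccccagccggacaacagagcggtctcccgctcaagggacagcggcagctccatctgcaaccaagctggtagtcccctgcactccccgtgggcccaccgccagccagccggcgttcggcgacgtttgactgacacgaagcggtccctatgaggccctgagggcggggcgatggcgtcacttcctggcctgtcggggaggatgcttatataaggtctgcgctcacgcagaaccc
Amd2 upstream: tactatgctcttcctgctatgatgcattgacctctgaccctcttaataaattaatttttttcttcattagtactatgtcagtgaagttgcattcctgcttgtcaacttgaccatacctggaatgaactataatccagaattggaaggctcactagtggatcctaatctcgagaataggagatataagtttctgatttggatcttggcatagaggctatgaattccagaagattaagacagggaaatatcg
When windows reaching 50 bases past the start were compared, the longest run that Amd1 and Amd2 shared was 48 bases, and it began at base 3 after the start of Amd1 and base 1 after that of Amd2. In Amd1 it ran to the end of the window, so its full length is at least this. In the 300-base windows, 63.0% of the Amd1 bases and 40.7% of the Amd2 bases were G or C.

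Among the 9 genes, levels per length (TPM) were highest for Amd1 in 3mCON, at 598 ± 297 (mean ± SD, n = 5), followed by Oaz1 at 299 ± 47.8, Sms at 188 ± 19.0 and Smox at 158 ± 21.6. Oaz2 (142 ± 15.5) and Odc1 (130.1 ± 64.75) came next, and Smox, Oaz2 and Odc1 did not differ beyond their spread. Sat1 stood at 47.4 ± 4.15, Azin1 at 27.3 ± 2.06, and Srm was lowest at 13.2 ± 2.09. Srm was also the lowest, and Azin1 the next lowest, in each of the other 7 groups.

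The order in the middle changed with genotype and rapamycin. Amd1 was first in 3mCON, 3mCON+RM, 3mTSCmKO, 9mCON and 9mCON+RM. In 9mTSCmKO, Oaz1 (408 ± 69.8 TPM) stood above Amd1 (313 ± 120), with overlap of their spreads. Amd1 ranked 4 in 3mTSCmKO+RM (188 ± 47.5) and 5 in 9mTSCmKO+RM (144 ± 29.6). Smox ranked 4 in 3mCON and was below Sat1 in both vehicle-treated TSCmKO groups. The study text names coding transcripts of support level 1 to 3 as the reference for the TPM. For some genes the implied lengths did not match that set in the annotation used here, so levels set between genes are uncertain. The length implied by the TPM and counts of Oaz1 was 1416 to 1650 nt, while its only coding transcript of support level 1 to 3 has 520 nt. For Oaz2 it was 913 to 971 nt against 865 nt. For the other genes with 1 such transcript it was shorter than that transcript, at 1134 to 1522 nt against 2208 nt for Odc1, 841 to 1088 nt against 1338 nt for Srm and 3510 to 3650 nt against 3717 nt for Sms.

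**Figure D1:**
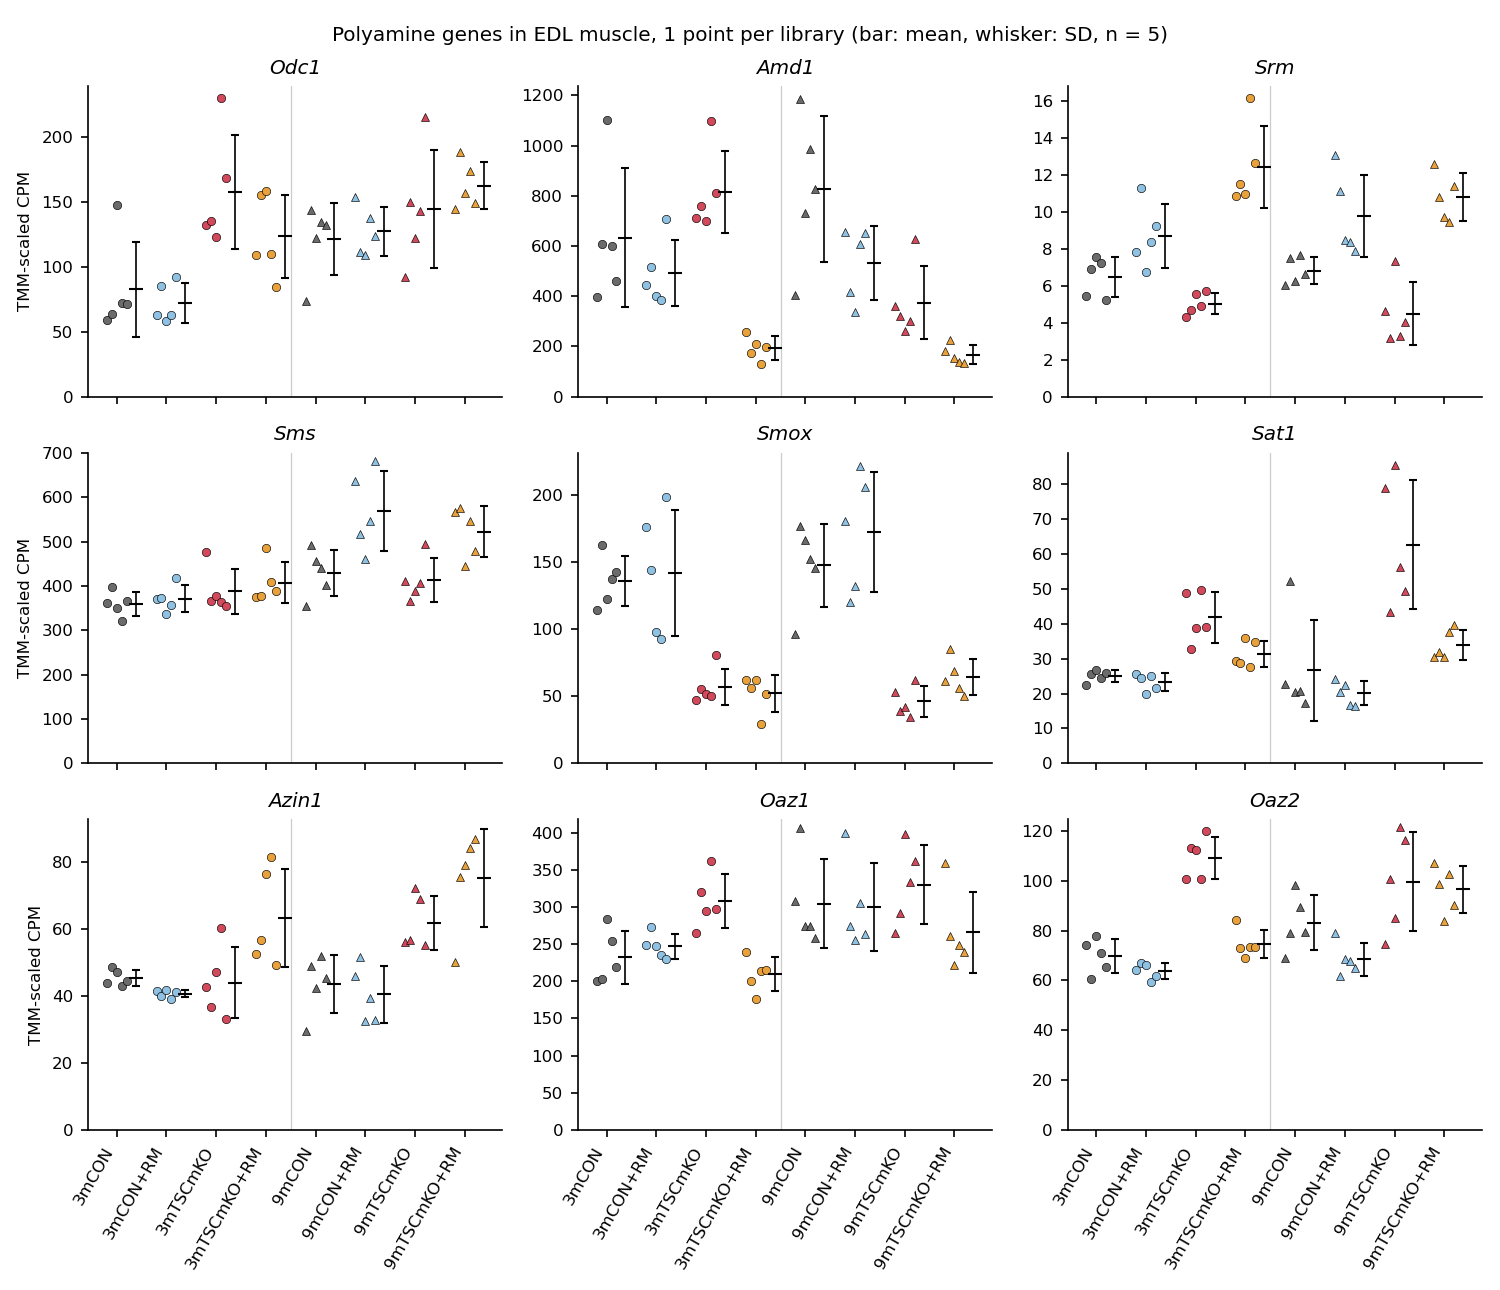
Each point is 1 library, as TMM-scaled CPM on linear axes that start at 0, for the 9 genes in the 8 groups (circles 3 months, triangles 9 months, bars and whiskers the mean and SD, n = 5). Smox is low in all TSCmKO libraries, and Amd1 lies between 130 and 257 CPM in the 10 TSCmKO+RM libraries.

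Odc1 makes putrescine from ornithine (ENSMUSG00000011179, chr12:17544794-17551505, plus strand). It was higher in 3mTSCmKO than in 3mCON, and no such difference passed the test at 9 months. The 3mCON libraries had 59.2, 63.4, 148, 72.3 and 71.0 CPM, and the 3mTSCmKO libraries 132, 135, 123, 229.9 and 168. Replicate 3 of 3mCON stood above 3 of the 5 3mTSCmKO libraries, and the other 4 controls lay below them all. The log2 fold change was 0.93 (SE 0.223, edgeR quasi-likelihood test, adjusted p = 0.00217), or 1.25 without that control library.

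At 9 months Odc1 ran from 73.4 to 143.5 CPM in 9mCON and from 92.4 to 216 in 9mTSCmKO, with wide overlap (log2 fold change 0.25, 95% interval -0.18 to 0.69, adjusted p = 0.379). The difference between the 2 ages in the genotype effect, -0.67 on the log2 scale (SE 0.313), did not pass the test (adjusted p = 0.225), but did without 3mCON replicate 3 (-0.99, adjusted p = 0.0384). Rapamycin gave Odc1 differences of -0.35 in 3mTSCmKO and 0.17 in 9mTSCmKO on the log2 scale, neither past the threshold (adjusted p = 0.265 and 0.593). Among rapamycin-treated mice at 3 months, Odc1 was higher in TSCmKO (84.4 to 158 CPM) than in CON (58.0 to 92.4 CPM), by 0.77 (SE 0.223, adjusted p = 0.0199). That call was lost without any 1 of 3mCON+RM replicates 1, 3 and 4 and 3mTSCmKO+RM replicates 2 and 3.

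Amd1 (ENSMUSG00000075232) was the member with the widest range. It fell with rapamycin in TSCmKO muscle at both ages, and it was lower in 9mTSCmKO than in 9mCON. In 3mTSCmKO the libraries had 713, 758, 699, 1097 and 812 CPM, and in 3mTSCmKO+RM 257, 172.5, 211, 129.6 and 199.6. The highest treated library lay well below the lowest vehicle library. This was a 4.20-fold fall (-2.07 in log2 units, SE 0.271, adjusted p = 3.23e-07).

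At 9 months the TSCmKO libraries had 362, 322, 262, 301 and 626 CPM of Amd1 with vehicle and 180.4, 225, 154, 139 and 136 with rapamycin. The groups again did not overlap, although replicate 5 with vehicle stood above its group. Amd1 was 2.24-fold lower with rapamycin (log2 fold change -1.17, SE 0.264, adjusted p = 0.000801), and the value was -0.90 without that replicate.

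In CON muscle, rapamycin was followed by Amd1 values of 444.5, 517, 400.3, 386.5 and 709 CPM at 3 months, against 396, 609, 1103, 599 and 461 with vehicle. The 9mCON+RM libraries had 656, 417, 337, 607 and 651 CPM, against 406, 1185, 733, 988 and 828 in 9mCON. Both pairs of groups overlapped, and neither difference passed the test. The value was -0.37 in the younger mice (adjusted p = 0.779) and -0.63 in the older ones (adjusted p = 0.115), and the latter passed without 9mCON replicate 1, the lowest of its group (-0.81, adjusted p = 0.043). The rapamycin effect on Amd1 differed between genotypes at 3 months, with a log2 difference of -1.70 and an SE of 0.371 (adjusted p = 0.00538). At 9 months the same difference was -0.53 (95% interval -1.25 to 0.19, adjusted p = 0.438).

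The genotype effect on Amd1 also differed with age. At 3 months it was 0.36 (SE 0.261, adjusted p = 0.362), with group means of 634 ± 278 CPM in 3mCON and 816 ± 163 CPM in 3mTSCmKO. At 9 months it was -1.14 (SE 0.264, adjusted p = 0.000721), from 828 ± 292 to 375 ± 145 CPM. Both pairs overlapped, at 9 months through 9mCON replicate 1 and 9mTSCmKO replicate 5. The difference between the 2 genotype effects was -1.51 (SE 0.370, adjusted p = 0.0125), and it passed in every fit without 1 library. With insert size as a term it was -1.44 (adjusted p = 0.0153).

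Srm, which makes spermidine from putrescine, was expressed at a low level, with 54 to 411 counts per library (ENSMUSG00000006442, chr4:148591503-148594993, plus strand). It rose with rapamycin in TSCmKO muscle, opposite in direction to Amd1. The 3mTSCmKO libraries had 4.28, 4.70, 5.55, 4.93 and 5.69 CPM, and the 3mTSCmKO+RM libraries 10.85, 11.5, 10.95, 16.1 and 12.6. The 9mTSCmKO libraries had 4.63, 3.18, 7.32, 3.29 and 4.025 CPM, and the 9mTSCmKO+RM libraries 12.6, 10.8, 9.73, 9.44 and 11.4. Neither pair of groups overlapped. Srm was 2.46-fold higher with rapamycin at 3 months (log2 fold change 1.30, SE 0.174, adjusted p = 3.95e-07) and 2.40-fold higher at 9 months (1.26, SE 0.177, adjusted p = 7.98e-07).

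With vehicle, Srm was lower in 9mTSCmKO than in 9mCON (6.02, 7.47, 6.25, 7.64 and 6.61 CPM), and the log2 value was -0.60 with an SE of 0.179 (adjusted p = 0.0076). The groups overlapped only through 9mTSCmKO replicate 3, and the value was -0.84 without it. The call was lost when the fit held only these 2 groups (adjusted p = 0.087). At 3 months the difference was -0.37 (adjusted p = 0.148).

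In CON muscle Srm had 7.90 to 13.0 CPM in 9mCON+RM, above all 9mCON libraries, which was 0.53 higher in log2 units (SE 0.175, adjusted p = 0.0421). That call was lost without any 1 of 5 libraries (9mCON replicates 1, 3 and 5, 9mCON+RM replicates 1 and 2), with upper-quartile scaling, with only the 2 groups, with a replicate block and with limma-trend. At 3 months the value was 0.42 (adjusted p = 0.389). The rapamycin effect on Srm was larger in TSCmKO than in CON by 0.87 at 3 months (SE 0.245, adjusted p = 0.0342) and by 0.74 at 9 months (SE 0.248, adjusted p = 0.0727), where it passed with limma-trend and without 9mCON+RM replicate 1 or 9mTSCmKO replicate 3. The 3-month value was lost with no filter on low counts, with a replicate block and in 11 of the 20 fits without 1 library, namely without 3mCON replicates 2, 3 and 4, 3mCON+RM replicates 1, 3 and 4, 3mTSCmKO replicates 1, 2 and 4, and 3mTSCmKO+RM replicates 4 and 5.

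Sms, which makes spermine from spermidine, varied less (ENSMUSG00000071708, chrX:157443855-157492287, minus strand). It ran from 321 to 682 CPM over the 40 libraries and did not differ by genotype past the threshold at either age (log2 fold change 0.11, 95% interval -0.11 to 0.33, and -0.05, interval -0.27 to 0.17). It rose with rapamycin at 9 months in both genotypes. The 9mCON+RM libraries had 637, 516, 459.5, 546 and 682 CPM, against 354.5, 491, 457, 439.8 and 402 in 9mCON. With rapamycin the 9mTSCmKO libraries had 566, 575, 446, 546.5 and 479 CPM, against 412, 365, 388, 406 and 495 with vehicle. Each pair overlapped by a few libraries.

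The log2 fold changes of Sms were 0.41 in CON (SE 0.112, adjusted p = 0.0141) and 0.34 in TSCmKO (SE 0.112, adjusted p = 0.0186). The first was lost without 9mCON replicate 1 or 9mCON+RM replicate 5, and with limma-trend. The second was lost without replicate 2 of 9mTSCmKO or of 9mTSCmKO+RM, and both were lost when only the 2 groups were fitted. At 3 months the values were 0.05 and 0.07, neither past the threshold, and the difference between the ages was not tested.

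Smox, which oxidizes spermine back to spermidine, was lower in TSCmKO muscle at both ages and with either treatment (ENSMUSG00000027333, chr2:131491496-131525922, plus strand). In 3mCON the libraries had 114, 162, 122, 137 and 142 CPM, against 46.9, 55.2, 51.3, 50.4 and 80.3 in 3mTSCmKO. The 9mCON libraries had 96.0, 177, 166, 152 and 145 CPM, against 52.9, 38.7, 41.6, 34.6 and 62.25 in 9mTSCmKO. Neither pair overlapped. The falls were 2.38-fold at 3 months (log2 fold change -1.25, SE 0.217, adjusted p = 3.5e-05) and 3.20-fold at 9 months (-1.68, SE 0.220, adjusted p = 1.07e-07).

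Among rapamycin-treated mice, Smox differed by genotype by -1.44 (SE 0.218, adjusted p = 1.01e-05) in the younger mice and by -1.42 (SE 0.218, adjusted p = 4.61e-06) in the older ones, again without overlap. Rapamycin itself gave log2 differences of -0.13 in 3mTSCmKO (29.0 to 62.3 CPM with rapamycin) and 0.48 in 9mTSCmKO (49.9 to 85.3 CPM with rapamycin). Neither passed the test (adjusted p = 0.73 and 0.0842), although the second did without 9mTSCmKO replicate 5 (0.61, adjusted p = 0.0356). The Smox calls by genotype passed under every alternative that was run.

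Sat1, whose product acetylates spermidine and spermine for export or oxidation, was higher in vehicle-treated TSCmKO muscle at both ages (ENSMUSG00000025283, chrX:155213132-155216449, minus strand). The 3mCON libraries had 22.5, 25.6, 26.8, 24.5 and 25.8 CPM, and the 3mTSCmKO libraries 48.8, 32.7, 38.75, 49.7 and 39.1, without overlap. The 9mCON libraries had 22.7, 52.4, 20.5, 20.8 and 17.15 CPM, and the 9mTSCmKO libraries 78.9, 43.4, 85.4, 56.4 and 49.35. At 9 months only 9mCON replicate 2 reached into the TSCmKO range. Log2 fold changes were 0.74 at 3 months (SE 0.197, adjusted p = 0.00523) and 1.24 at 9 months (SE 0.198, adjusted p = 4.24e-06), or 1.63 without that library. Among rapamycin-treated mice the genotype difference in Sat1 passed at 9 months. At 3 months it did not pass, with 27.6 to 35.9 CPM in 3mTSCmKO+RM and 19.8 to 25.7 CPM in 3mCON+RM.

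Rapamycin lowered Sat1 in 9mTSCmKO, to 30.6, 31.9, 30.45, 37.5 and 39.6 CPM, below all vehicle libraries (log2 fold change -0.88, SE 0.196, adjusted p = 0.000609). In 3mTSCmKO+RM Sat1 had 29.3, 28.8, 35.9, 27.6 and 34.7 CPM, a difference of -0.42 (adjusted p = 0.115) with overlap, which passed when only the 2 groups were fitted (adjusted p = 0.0156). In CON the differences were -0.10 and -0.41 (adjusted p = 0.968 and 0.2), and the latter was -0.02 without 9mCON replicate 2. The rapamycin effect on Sat1 did not differ between genotypes past the threshold at 3 or 9 months (adjusted p = 0.685 and 0.342), but at 9 months it did without 9mCON replicate 2 (-0.87, adjusted p = 0.011).

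Azin1, the antizyme inhibitor, was higher in 9mTSCmKO (55.2 to 72.3 CPM) than in 9mCON (29.7 to 52.1 CPM), without overlap (ENSMUSG00000037458, chr15:38487427-38519266, minus strand). The log2 fold change was 0.50 (SE 0.159, adjusted p = 0.0115). At 3 months it was -0.04 (adjusted p = 0.885), and the difference between the ages was 0.55 (adjusted p = 0.16). Rapamycin raised Azin1 in 3mTSCmKO from 42.6, 36.8, 47.2, 60.5 and 33.2 CPM to 52.6, 56.8, 76.6, 81.5 and 49.2 CPM, with overlap through replicate 4 of the vehicle group. That change was 0.52 (SE 0.158, adjusted p = 0.0129) and was lost without 3mTSCmKO replicate 5 or 3mTSCmKO+RM replicate 4. In 9mTSCmKO the rapamycin difference was 0.28 (adjusted p = 0.17), which passed without 9mTSCmKO+RM replicate 1.

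The antizymes rose together in 3mTSCmKO and were lower with rapamycin. Oaz2 (ENSMUSG00000040652, chr9:65668001-65690300, plus strand) had 60.7 to 77.7 CPM in 3mCON, 101 to 119.9 CPM in 3mTSCmKO and 69.1 to 84.4 CPM in 3mTSCmKO+RM. The 3mTSCmKO libraries overlapped with neither of the other groups. Its log2 fold changes were 0.65 by genotype (SE 0.108, adjusted p = 1.85e-05) and -0.55 by rapamycin (SE 0.107, adjusted p = 0.000179).

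Oaz1 (ENSMUSG00000035242, chr10:80826656-80829290, plus strand) had 200.3 to 284 CPM in 3mCON, 265 to 362 CPM in 3mTSCmKO and 177 to 239.9 CPM in 3mTSCmKO+RM. Its genotype change of 0.41 (SE 0.139, adjusted p = 0.0322) was lost without any 1 of 3mCON replicates 1, 2 and 5 and 3mTSCmKO replicates 2 and 4. It was also lost with upper-quartile scaling and with insert size as a term. The fall with rapamycin was 0.56 on the log2 scale (log2 fold change -0.56, SE 0.139, adjusted p = 0.00268), without overlap.

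At 9 months neither antizyme passed the test for genotype. The log2 values were 0.12 for Oaz1 (adjusted p = 0.535) and 0.26 for Oaz2 (adjusted p = 0.051). Oaz2 passed with RLE size factors, with insert size as a term, with limma-trend and with DESeq2, and also without any 1 of 9mCON replicates 3 and 4 and 9mTSCmKO replicates 1 and 3. The rapamycin differences in 9mTSCmKO were -0.31 for Oaz1 (adjusted p = 0.0823) and -0.05 for Oaz2 (adjusted p = 0.768). The Oaz1 value was -0.44 without 9mTSCmKO+RM replicate 1, and then passed (adjusted p = 0.0126), as it did without 9mTSCmKO replicate 1 (-0.38, adjusted p = 0.0424) and with limma-trend (-0.34, adjusted p = 0.025).

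**Figure D2:**
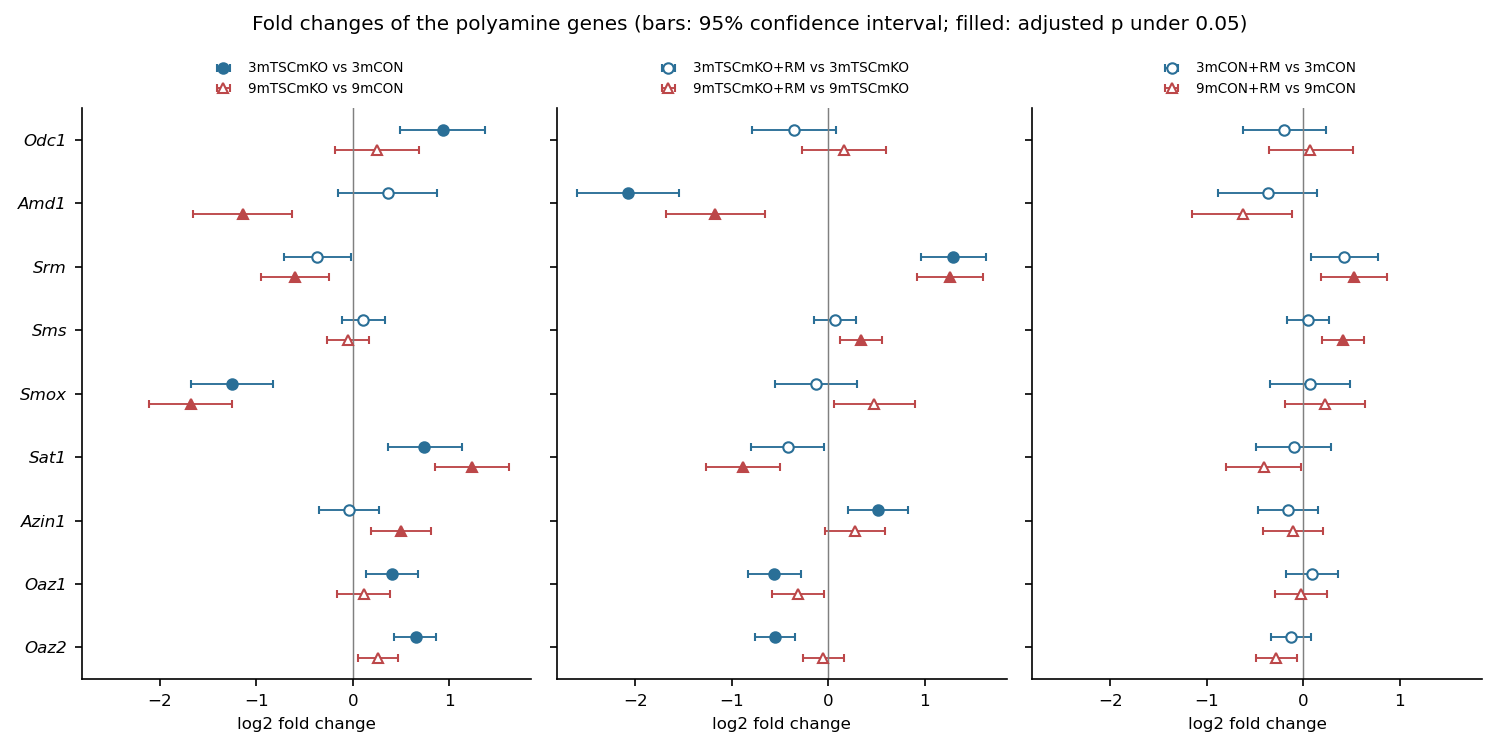
Log2 fold changes with 95% confidence intervals for the 9 genes, by genotype (left), by rapamycin in TSCmKO (middle) and by rapamycin in CON (right), with circles for 3 months, triangles for 9 months and filled marks where the adjusted p was under 0.05. Amd1 lies at -2.07 and -1.17 and Srm at 1.30 and 1.26 in the middle panel, and Smox at -1.25 and -1.68 in the left one.

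Counted together, 5 of the 9 genes differed by genotype at 3 months (Odc1, Sat1, Oaz1 and Oaz2 higher, Smox lower), where 19.8% of all tested genes did. At 9 months 5 of 9 differed (Sat1 and Azin1 higher, Amd1, Srm and Smox lower), against 37.9% of all genes. The median log2 fold change of the 9 genes was 0.36 at 3 months and 0.12 at 9 months, and that of all tested genes -0.02 at both ages. The genotype and rapamycin comparisons share the vehicle-treated TSCmKO libraries, and opposite signs between them are not independent.

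Rapamycin changed 5 of 9 in 3mTSCmKO (Srm and Azin1 higher, Amd1, Oaz1 and Oaz2 lower) where 23.6% of all genes passed, and 4 of 9 in 9mTSCmKO (Srm and Sms higher, Amd1 and Sat1 lower) where 32.6% did. In 9mCON it changed 2 of 9, Srm and Sms, against 11.8%. In 3mCON, 0 of 9 passed with edgeR, where 0.679% of all genes did. There 1 of the 9 (Srm) had an unadjusted p under 0.05, and DESeq2 and limma-trend also called 0.

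Rapamycin-treated TSCmKO mice were compared with both control groups. Against 3mCON+RM, 5 of 9 differed (Odc1, Srm and Azin1 higher, Amd1 and Smox lower, 10% of all genes), and against 9mCON+RM 5 of 9 did (Sat1, Azin1 and Oaz2 higher, Amd1 and Smox lower, 20.6% of all genes). The log2 values of Amd1 were -1.34 in the younger mice (adjusted p = 0.000534) and -1.68 in the older ones (adjusted p = 9.71e-06), and Azin1 was higher by 0.64 and 0.89. The Srm difference at 3 months, 0.51 (adjusted p = 0.0483), was lost in 7 of 10 fits without 1 library (3mCON+RM replicates 1, 3, 4 and 5, 3mTSCmKO+RM replicates 2, 4 and 5), without a filter on low counts, with insert size as a term and with a replicate block.

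Against vehicle controls, 4 of 9 differed in 3mTSCmKO+RM (Srm and Azin1 higher, Amd1 and Smox lower, 16.7% of all genes) and 5 of 9 in 9mTSCmKO+RM (Srm, Sms and Azin1 higher, Amd1 and Smox lower, 31.9% of all genes). Amd1 was 3.27-fold lower than in 3mCON (adjusted p = 1.25e-05) and 4.96-fold lower than in 9mCON (adjusted p = 2.73e-08). The Azin1 call at 3 months (0.48, adjusted p = 0.0308) was lost with limma-trend or without any 1 of 5 libraries, 3mCON replicates 1, 4 and 5 and 3mTSCmKO+RM replicates 3 and 4. The Sms call at 9 months (0.28, adjusted p = 0.0485) was lost without any 1 of 6 (9mCON replicates 1, 4 and 5, 9mTSCmKO+RM replicates 1, 2 and 4) and under 4 of the other alternatives. Other genes passed without a single control library. Odc1 against 3mCON (0.57, adjusted p = 0.071) was 0.89 without 3mCON replicate 3 (adjusted p = 0.00229), and also passed without 3mTSCmKO+RM replicate 5 and with limma-trend. Sat1 against 9mCON (0.35, adjusted p = 0.173) was 0.75 without 9mCON replicate 2 (adjusted p = 0.000306), and also passed with limma-trend. These comparisons share groups with the ones above and are not independent of them.

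With age, 0 of 9 genes differed between 9mCON and 3mCON with edgeR, where 1.02% of all genes did. There 4 of the 9 (Oaz1, Oaz2, Odc1 and Sms) had an unadjusted p under 0.05, DESeq2 and limma-trend called 0, and Odc1 passed without 3mCON replicate 3. In TSCmKO, 3 of 9 differed (Sat1 and Azin1 higher, Amd1 lower) against 37.4% of all genes, and Amd1 was 2.18-fold lower at 9 months (log2 fold change -1.12, SE 0.263, adjusted p = 0.00113). With insert size as a term none of the 3 passed, and the values were -0.64 for Amd1, 0.41 for Sat1 and 0.44 for Azin1. Sat1 was also lost without 3mTSCmKO replicate 2 or 9mTSCmKO replicates 1 or 3, and Azin1 without 3mTSCmKO replicate 5 and with limma-trend.

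The genotype effect differed between ages for 1 of 9 genes, Amd1, against 4.94% of all genes. The difference for Sat1 was 0.49 (adjusted p = 0.327), but without 9mCON replicate 2 it was 0.89 and passed (adjusted p = 0.00949). The rapamycin effect differed between genotypes at 3 months for 2 of 9, Amd1 and Srm, against 3.45%, and for 3 of 9 each with DESeq2 and with limma-trend. Both of these tools added Oaz1 (-0.65, adjusted p = 0.0586 with edgeR). Oaz1 also passed when only the groups compared were fitted and without 3mCON replicate 3 or 3mTSCmKO+RM replicate 1. The Azin1 difference (0.68, adjusted p = 0.0879) passed with only the groups compared and without 3mTSCmKO replicate 4, and the Oaz2 difference (-0.41, adjusted p = 0.142) with only the groups compared. At 9 months it did so for 0 of 9 with edgeR, against 4.87% of all genes. Srm alone had an unadjusted p under 0.05 there, DESeq2 called 0 and limma-trend 1.

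Cell type markers moved in some of the same comparisons. Summed levels add the CPM of all genes of a list within a library, so they follow its most abundant genes. In 9mTSCmKO against 9mCON, 3 of 4 fibroblast markers (summed level 274 to 849 against 772 to 1497 CPM), 4 of 5 tendon markers (13.6 to 45.1 against 43.2 to 359 CPM) and 3 of 7 fast fiber markers (92020 to 107000 against 139500 to 149900 CPM) were lower, and of 6 macrophage markers 1 was higher and 1 lower (38.9 to 76.4 against 46.9 to 130.3 CPM). There 1 of 4 endothelial (177 to 291 against 206 to 323 CPM) and 1 of 3 adipocyte markers (4.04 to 14.0 against 17.95 to 35.1 CPM) were also lower. In 9mCON+RM against 9mCON, 4 of 4 fibroblast (120.1 to 567 CPM with rapamycin), 4 of 5 tendon (12.15 to 34.8 CPM) and 5 of 6 macrophage markers (10.8 to 38.35 CPM) were lower. There 0 of 7 fast fiber markers passed, although their summed level was higher without overlap (165800 to 174800 against 139500 to 149900 CPM).

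With rapamycin in TSCmKO, of the 7 fast fiber markers 3 rose and 1 fell at each age, with summed levels of 138900 to 171700 against 92870 to 157200 CPM at 3 months and 131300 to 161400 CPM with rapamycin at 9 months. In 3mTSCmKO 1 of 6 macrophage (66.25 to 139 CPM with rapamycin against 47.4 to 96.1), 1 of 4 fibroblast (1130 to 2102 against 803 to 1335) and 1 of 5 tendon markers (215 to 402.5 against 92.7 to 305.5) were higher. In 9mTSCmKO the 1 satellite cell marker was higher (2.34 to 3.96 CPM against 1.09 to 3.11), and 1 of 6 macrophage (33.9 to 44.05 CPM with rapamycin) and 1 of 4 endothelial markers (146 to 325 CPM with rapamycin) were lower.

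Between 3mTSCmKO and 9mTSCmKO, where Amd1, Sat1 and Azin1 differed with age, many markers were lower at 9 months. These were 3 of 4 endothelial (177 to 291 CPM at 9 months against 271 to 325), 3 of 4 fibroblast (274 to 849 against 803 to 1335), 4 of 5 tendon (13.6 to 45.1 against 92.7 to 305.5), 3 of 3 adipocyte (4.04 to 14.0 against 20.2 to 97.1), 3 of 4 erythroid (269 to 1177 against 461 to 8882) and 2 of 7 fast fiber markers. In the same comparison 1 tendon and 1 of 3 Schwann cell markers were higher, and of 6 macrophage markers 1 was higher and 1 lower.

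In 9mTSCmKO+RM against 9mCON, 4 of 4 fibroblast (343 to 606 against 772 to 1497 CPM), 4 of 5 tendon (13.8 to 41.9 against 43.2 to 359), 4 of 6 macrophage (33.9 to 44.05 against 46.9 to 130.3), 1 of 3 Schwann cell (49.5 to 96.8 against 99.3 to 192.5) and 1 of 4 erythroid markers (347 to 741 against 349 to 6968) were lower, and of 7 fast fiber markers 1 was higher and 1 lower. Against 9mCON+RM, 2 of 7 fast fiber (131300 to 161400 against 165800 to 174800 CPM) and 1 of 4 endothelial markers (146 to 325 against 217 to 371) were lower and 1 of 6 macrophage markers (against 10.8 to 38.35) was higher. At 3 months 1 of 5 tendon markers was lower in 3mTSCmKO than in 3mCON (92.7 to 305.5 against 65.8 to 556 CPM) and 1 was higher in 3mTSCmKO+RM (215 to 402.5 CPM) in each comparison with a control group. Against 3mCON, 3mTSCmKO+RM also had 1 macrophage and 1 fast fiber marker higher and 1 fast fiber marker lower. The genotype effect was lower at 9 than at 3 months for 2 of 4 erythroid and 1 of 7 fast fiber markers, and the rapamycin effect at 3 months was higher in TSCmKO for 1 of 5 tendon markers. Of the marker genes tested, only Comp was at 0, in at least 1 library of 9mTSCmKO+RM. The part of these markers in the polyamine results was not tested.

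Ratios of TPM within each library put opposed changes side by side, as a description without a test. The ratio of Amd1 to Srm was 74.7 ± 17.3 (SD, n = 5) in 3mTSCmKO and 7.57 ± 2.75 in 3mTSCmKO+RM. It was 39.5 ± 17.6 in 9mTSCmKO and 7.05 ± 1.48 in 9mTSCmKO+RM. In CON it was 43.9 ± 14.9 and 26.1 ± 6.15 at 3 months and 55.3 ± 20.3 and 27.6 ± 10.85 at 9 months, without and with rapamycin. The 10 libraries of the rapamycin-treated TSCmKO groups (3.85 to 11.3) all lay below the 30 others (17.4 to 101).

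For catabolism, the ratio of Smox to Sat1 was 3.33 ± 0.359 in 3mCON and 0.857 ± 0.278 in 3mTSCmKO, and 3.78 ± 1.42 in 9mCON and 0.450 ± 0.188 in 9mTSCmKO. With rapamycin it was 1.01 ± 0.258 in 3mTSCmKO+RM and 1.14 ± 0.334 in 9mTSCmKO+RM. All 20 TSCmKO libraries (0.277 to 1.57) lay below all 20 CON libraries (1.998 to 7.63). The ratio of Odc1 to the summed antizymes was 0.285 ± 0.0944 in 3mCON, 0.399 ± 0.0843 in 3mTSCmKO and 0.474 ± 0.160 in 3mTSCmKO+RM, with overlapping ranges. At 9 months this ratio was 0.318 ± 0.0814 in 9mCON, 0.324 ± 0.0846 in 9mTSCmKO and 0.456 ± 0.0813 in 9mTSCmKO+RM, also with overlap. That of Azin1 to the summed antizymes was 0.04195 ± 0.00774 in 3mTSCmKO and 0.08995 ± 0.0267 in 3mTSCmKO+RM, without overlap. At 9 months the same ratio was 0.0571 ± 0.00852 in 9mTSCmKO and 0.0859 ± 0.0246 in 9mTSCmKO+RM, and these groups overlapped. All of these ratios rest on uncertain transcript lengths, those of the antizymes included, and the Amd1 row may hold reads of Amd2.

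**Figure D3:**
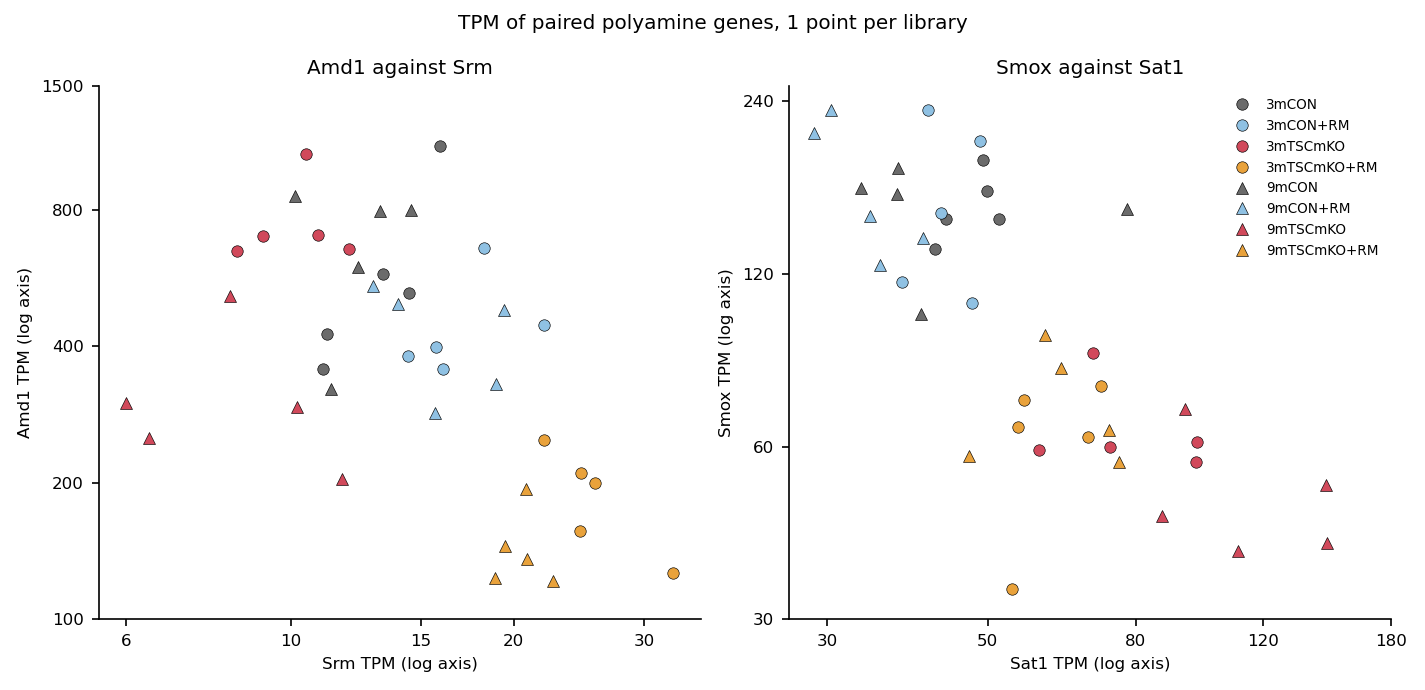
TPM of Amd1 against Srm (left) and of Smox against Sat1 (right) on log axes, 1 point per library (circles 3 months, triangles 9 months, colors for genotype and treatment). The rapamycin-treated TSCmKO libraries lie at the lower right on the left panel, where the Amd1 to Srm ratio is 3.85 to 11.3, and all TSCmKO libraries lie apart from CON on the right one.

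A wider list of 26 genes around the pathway (use of ornithine and arginine, methionine and S-adenosylmethionine, salvage of methylthioadenosine, oxidation, transport, and hypusination of eIF5A, which uses spermidine) had 21 tested members. The rest of the list was not tested. By genotype, 1 rose and 2 fell at 3 months, where 19.8% of all tested genes passed, and 4 rose and 6 fell at 9 months, where 37.9% did. With rapamycin, 5 rose in 3mTSCmKO against 23.6% of all genes, and 4 rose and 2 fell in 9mTSCmKO against 32.6%. The counts by genotype and with rapamycin lie near these shares and are no result about the list. The medians of the 21 ran from -0.11 to 0.10 in these 4 comparisons, and those of all tested genes from -0.04 to 0.01.

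Oat, which uses ornithine for another path than putrescine, was lower in TSCmKO. Its level was 174 ± 12.9 CPM in 3mCON and 119 ± 21.3 CPM in 3mTSCmKO (log2 fold change -0.55, SE 0.115, adjusted p = 0.000434). At 9 months it was 174 ± 16.6 CPM in CON and 87.3 ± 9.19 CPM in TSCmKO (-1.0, SE 0.116, adjusted p = 7.21e-09). Neither pair overlapped. Oat rose with rapamycin in 9mTSCmKO, to 118 ± 15.1 CPM (0.44, adjusted p = 0.00326), and remained below 9mCON. In 9mCON+RM, Oat also rose past the threshold, to 223 ± 35.4 CPM, so the rise was not confined to TSCmKO. At 3 months the rapamycin difference passed in neither genotype.

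Mat2a, which makes S-adenosylmethionine, was lower in 9mTSCmKO (172 ± 14.8 CPM) than in 9mCON (274 ± 70.7 CPM), with a log2 value of -0.67 and an SE of 0.136 (adjusted p = 0.000132). Among the enzymes that recycle methylthioadenosine, the by-product of Srm and Sms, Enoph1 was lower in TSCmKO, at -0.67 in log2 units in the younger mice (adjusted p = 0.000334) and at -0.74 in the older ones (adjusted p = 3.41e-05). Mtap rose with rapamycin in 9mTSCmKO from 20.03 ± 1.60 to 35.1 ± 5.01 CPM (0.81, SE 0.117, adjusted p = 1.29e-06), and Mri1 in 3mTSCmKO from 13.5 ± 1.01 to 20.8 ± 2.06 CPM (0.62, SE 0.151, adjusted p = 0.00196). Both changes were without overlap. Each of these 2 genes also passed at the other age. Mtap went from 24.5 ± 3.54 CPM in 3mTSCmKO to 31.1 ± 3.51 CPM in 3mTSCmKO+RM, without overlap. Mri1 went from 16.5 ± 2.22 CPM in 9mTSCmKO to 21.55 ± 6.04 CPM in 9mTSCmKO+RM, with overlap.

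The remaining genes of the list named by size were low. Eif5a2, a form of the hypusinated factor, rose from 2.52 ± 0.839 CPM in 9mCON to 4.75 ± 0.862 CPM in 9mTSCmKO (0.90, adjusted p = 0.000289). Azin2, a second antizyme inhibitor, rose with rapamycin in 3mTSCmKO from 1.33 ± 0.162 to 2.13 ± 0.309 CPM (0.67, adjusted p = 0.00825). Sat2, a relative of Sat1, was higher in 9mTSCmKO by 0.80 (adjusted p = 0.00829), which was lost without 9mTSCmKO replicate 3 and with only the 2 groups. Slc18b1, a vesicular polyamine transporter, was higher in 9mTSCmKO by 0.58 (adjusted p = 0.019) and fell with rapamycin by 0.71 (log2 fold change -0.71, adjusted p = 0.00585), and both calls were lost without 9mTSCmKO replicate 1 and with only the 2 groups, the first also without 9mCON replicate 5.

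**Figure D4:**
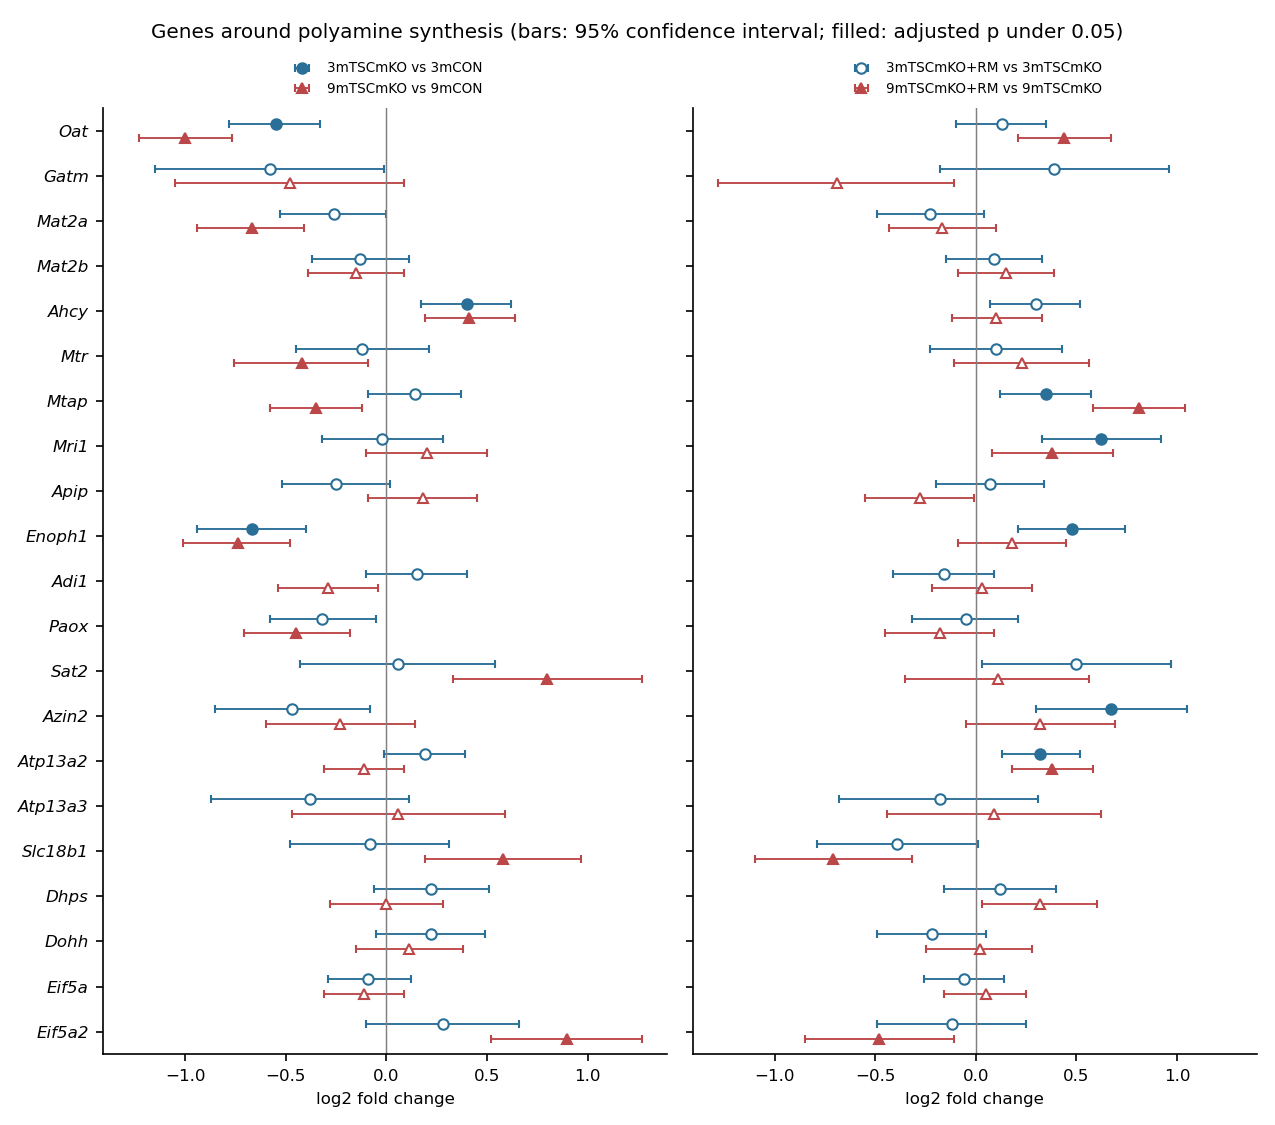
Log2 fold changes with 95% confidence intervals for the 21 tested genes of the wider list, by genotype (left) and by rapamycin in TSCmKO (right), with circles for 3 months, triangles for 9 months and filled marks where the adjusted p was under 0.05. Oat lies at -0.55 and -1.0 and Enoph1 at -0.67 and -0.74 on the left, and Mtap at 0.81 at 9 months on the right.

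The genes whose log2 CPM followed that of Amd1 most closely over the 40 libraries, among 13542 others, were Asb14 (Pearson r = 0.898), Zfp131 (0.863) and Pkdcc (0.859). For Odc1 they were Psmd8 (0.759), Zc2hc1c (0.735) and Phlda3 (0.734). The 40 points fall into the 8 groups and share their depth scaling, so these values are a description of likeness across groups.

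RefSeq promoter windows (250 bases before to 50 after the start, GRCm38.p6) were given for 8 of the 10 genes, in 9 windows, with Srm and Azin1 missing. On both strands, CACGTG (an E-box) was in 1 window of Sms, and in 7.15% of all 32851 windows. TATAAA was in the window of Oaz1, and in 13.6% of all. TGACGTCA (a CRE) was in 0 of the 9, and in 1.79% of all.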

How the data were processed

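Poly(A) RNA of EDL muscle from 40 mice was sequenced as directional single-end libraries. Per the submitters' processing notes, reads were trimmed with cutadapt 1.9.1 and assigned with kallisto 0.43.1 to GRCm38 transcripts. Where a read fitted more than 1 transcript, each got an equal part of it, and the parts were added up by gene. The deposited estimated counts per gene are whole numbers, and the deposited TPM were computed by the authors. Sample labels gave the groups, and 0 columns of values were without a label.

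Estimated counts were rounded and tested with edgeR 4.0.16 (R 4.3.3, TMM, robust quasi-likelihood F-test, 8 group means) on 13543 genes with at least 1 CPM in 5 libraries. Adjusted p-values are Benjamini-Hochberg values over all tested genes, with a threshold of 0.05, for 15 comparisons. The test was checked on simulated data. limma 3.58.1 on log2(TPM + 1) and DESeq2 1.42.0 were alternatives, with other scalings, no filter, only the groups compared, insert size (39 libraries) as a term, each library left out, and a replicate block. The replicate numbers did not pair the mice.

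Besides Tsc1 and the 10 members, the text names genes of the wider list past the threshold by genotype or by rapamycin in TSCmKO with an absolute log2 fold change of at least 0.5, and the 3 genes most correlated with Odc1 and Amd1. Members and lists were chosen with earlier results of these data known.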

Additional observations from a re-analysis of the deposited data

Results flagged for a closer look

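Dixon's criterion flags about 1 in 20 sets by chance if values are normally distributed, which was not tested for these CPM. Of 72 sets of 5 libraries (9 genes in 8 groups), 8 held 1 library that stood far above the other 4 by that criterion. For Odc1 in 3mCON it was replicate 3 at 148 CPM, with the others at 59.2 to 72.3. For Amd1 it was 3mTSCmKO replicate 4 at 1097 CPM (others 699 to 812) and 9mTSCmKO replicate 5 at 626 CPM (others 262 to 362). Sms reached 477 CPM in 3mTSCmKO replicate 1 (others 355 to 377), and Smox 80.3 CPM in 3mTSCmKO replicate 5 (others 46.9 to 55.2). Sat1 had 52.4 CPM in 9mCON replicate 2 (others 17.15 to 22.7). Oaz1 had 359.8 CPM in 9mTSCmKO+RM replicate 1 (others 222 to 261), and Oaz2 84.4 CPM in 3mTSCmKO+RM replicate 1 (others 69.1 to 73.4).

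The effect of a treatment or genotype differed between groups, by a test of the difference itself (edgeR, adjusted p), in 3 cases. The genotype effect on Amd1 differed between 9 and 3 months by -1.51 in log2 units (adjusted p = 0.0125). At 3 months the rapamycin effect differed between TSCmKO and CON by -1.70 for Amd1 (adjusted p = 0.00538) and by 0.87 for Srm (adjusted p = 0.0342). The Srm difference was lost with no filter on low counts, with a replicate block and in most fits without 1 library, as given above.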

How the results depend on the processing

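Over the 46 calls of the 9 genes in 15 comparisons, none changed direction. RLE size factors and DESeq2 kept all 46 past the threshold. Upper-quartile scaling and no filter each lost 3, only the groups compared and insert size 5 each, and limma-trend 4. The cause was not tested. In 9mCON+RM against 9mCON, 0 genes passed with only these groups and 0 with limma-trend, against 2. In 9mTSCmKO against 3mTSCmKO, 0 passed with insert size as a term, against 3. For the difference in rapamycin effect between genotypes, limma-trend gave 1 at 9 months, and at 3 months no filter gave 1 and only the groups compared gave 5, DESeq2 3 and limma-trend 3, against 2. The replicate numbers did not pair the samples: same-numbered deviations correlated by -0.42 to 0.51, over 0.1 in 17 of 60 pairs, and 12 of 60 were best with their own number. The replicate block lost 4 of the 46 calls, with 1 gene passing in 9mCON+RM against 9mCON and 1 for the difference in rapamycin effect at 3 months.

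Without 1 library, the genes passing numbered 5 to 6 by genotype at 9 months and 4 to 5 at 3 months. With rapamycin they numbered 3 to 6 in 9mTSCmKO, 4 to 5 in 3mTSCmKO, 1 to 2 in 9mCON and 0 in each fit in 3mCON. They numbered 5 in each fit against 9mCON+RM, 3 to 5 against 3mCON+RM, 4 to 6 against 9mCON and 3 to 5 against 3mCON for rapamycin-treated TSCmKO. With age they were 0 to 1 in CON and 2 to 3 in TSCmKO. The differences between effects gave 1 to 2 (age), 0 to 1 (rapamycin, 9 months) and 1 to 3 (rapamycin, 3 months). On TPM, the median of all genes between 9mCON and 3mCON was -0.10, against 0.01 on counts. A fit with Amd1 and Amd2 summed was not run, since Amd2 was not analysed here. Srm had the fewest counts of the 9 genes, down to 54 per library.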
